A study of Homo sapiens with 6 samples.

Results

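The 40 genes described here run mitosis, from entry through the spindle checkpoint to cytokinesis. They were taken by name, and each of the 40 had a row among the 30676 genes of the table. All 40 passed the filter, a mean of at least 0.5 FPKM, that left 13721 genes for testing. FPKM is the number of fragments for each kilobase of a gene after scaling by library size. The libraries are labelled HCT116, an established human colorectal cancer line, with a wild-type genotype. For all 6 libraries the cells were kept at 1% oxygen for 24 hours. In 3 libraries the cells received GIA, a genistein isoflavonoid alkaloid, at 10 µM, and in 3 they received DMSO at 0.1%. The comparison asks whether GIA alters transcript levels in cells at low oxygen, and no normoxic group was analysed here.

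Mitosis starts when cyclin B and cyclin A activate the kinase CDK1. WEE1 holds CDK1 back by phosphorylating it, and the CDC25 phosphatases remove that mark. Unattached kinetochores keep the spindle assembly checkpoint on, which blocks CDC20, an activator of the anaphase-promoting complex. Once CDC20 is free, the complex marks securin and cyclin B for destruction, separase cuts cohesin, and the cell divides. Most of these transcripts are made in G2 and mitosis, under the MuvB complex, MYBL2 and FOXM1, so they are widely used to read proliferation. In bulk RNA, fewer cells in G2 and mitosis and less RNA per such cell cannot be told apart.

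Library totals were 55725249 to 63542466 estimated counts with DMSO and 64804849 to 67835059 with GIA, so each GIA library was deeper than each DMSO library. The least covered of the 40 genes in any library had 839 estimated counts. The labels do not tell whether the replicates are separate cultures. The p-values therefore measure only how these samples vary, and that variation may be technical. Markers went in part against the labelled cell type. Of 8 epithelial markers, KRT18 had 219 to 274 FPKM, KRT8 134 to 151, KRT19 26.2 to 29.9 and CLDN7 10.2 to 14.9. EPCAM did not exceed 0.335 FPKM, CDH1 (E-cadherin) did not exceed 0.0490, CLDN3 reached 0.542 and CLDN4 1.02. Among intestinal genes, looked up after these values were seen, CDH17, VIL1, LGALS4, KRT20 and LGR5 stayed at or below 0.0751 FPKM in every library, while MUC13 had 38.9 to 64.5. The Wnt target AXIN2 did not exceed 0.0787 FPKM. The mesenchymal gene VIM, looked up in the same check, had 147 to 160 FPKM. Of 6 fibroblast markers in the table, LUM (lumican) had 157 to 197 FPKM, PDGFRB 3.77 to 5.38 and COL1A1 2.23 to 3.17, and DCN had at least 11.2. THY1 did not exceed 0.133 FPKM, and COL3A1 was listed at 0 in 5 libraries. The results below hold for the cells labelled HCT116.

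Sequence features that had no part in choosing the genes were found in most of the promoters that could be read. RefSeq windows of 300 bases (GRCh38.p14, 250 before and 50 after a transcript start) matched 31 of the 40 genes by symbol, with 41 windows. AURKA, BUB3, TTK, TPX2, BIRC5, UBE2C, FOXM1, RACGAP1 and WEE1 had no entry. The letters TTTGAA are a spelling of the cell cycle genes homology region that MuvB recognises, and other spellings were not searched. They occurred on either strand in 23 of the 31 (74.2%), against 18.2% of 27305 genes with a window. A match began within the 50 bases before the start in 15 of the 31 (48.4%), against 3.22% of all genes. CCAAT, the box bound by NF-Y, occurred on either strand in 28 (90.3%), against 39.7%. Both were found in 21 (67.7%), against 8.37%. CENPE was the only gene of the 31 with neither of these exact matches. The 50-base limit was set after the positions were seen, and a match describes letters, not binding.

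The 80 bases before the start are shown for 6 genes, to show how the matches are placed. Among the genes with a single window, they are those with at most 26 of these bases in an annotated exon. Each stretch reads 5′ to 3′ on the gene's strand, and capitals mark TTTGAA or CCAAT in either orientation (TTCAAA and ATTGG when reversed). ESPL1, MKI67 and CDC20 have both motifs in the stretch, and NEK2, CENPF and ASPM have only CCAAT.
ESPL1 (chr12:53268219-53268298, plus strand): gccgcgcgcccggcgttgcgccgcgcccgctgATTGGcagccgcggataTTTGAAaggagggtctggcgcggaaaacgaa
MKI67 (chr10:128126424-128126503, minus strand): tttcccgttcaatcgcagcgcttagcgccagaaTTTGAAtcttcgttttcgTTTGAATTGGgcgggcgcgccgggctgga
CDC20 (chr1:43358901-43358980, plus strand): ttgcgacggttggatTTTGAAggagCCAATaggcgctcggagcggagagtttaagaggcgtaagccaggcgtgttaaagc
NEK2 (chr1:211675622-211675701, minus strand): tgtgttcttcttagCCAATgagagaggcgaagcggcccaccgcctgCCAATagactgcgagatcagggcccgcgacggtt
CENPF (chr1:214603115-214603194, plus strand): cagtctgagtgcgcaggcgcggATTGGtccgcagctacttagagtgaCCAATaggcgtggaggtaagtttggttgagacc
ASPM (chr1:197146670-197146749, minus strand): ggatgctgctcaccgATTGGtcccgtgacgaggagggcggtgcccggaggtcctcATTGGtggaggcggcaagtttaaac
In MKI67 the TTTGAA at position -29, counted from the start, shares its last base with the reversed CCAAT at -24. The median log2 fold change, GIA over DMSO, was 0.029 over the 23 genes with TTTGAA anywhere in a window and 0.028 over the 8 without it.

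**Figure D1:**
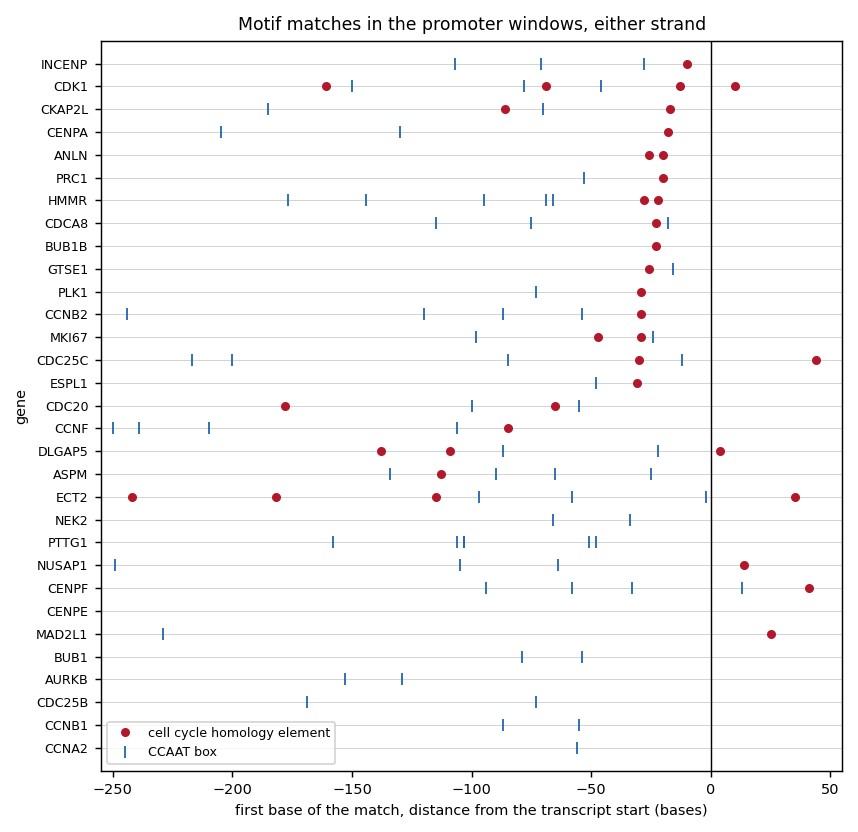
Positions of TTTGAA (cell cycle homology element, red circles) and CCAAT (blue bars) in the promoter windows of 31 genes, as the distance of the first base of a match from the transcript start in bases, either strand, with all windows of a gene on 1 line. In 15 genes a red circle lies within the 50 bases before the start, and CENPE has no mark.

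None of the 40 mitotic genes passed the test between GIA and DMSO, and every fold change was small. The median log2 fold change was 0.024, or 1.68%. The lowest was that of PRC1 (-0.051) and the highest that of CDC25C (0.13), and 37 of 40 lay within 0.10 of 0. By edgeR's quasi-likelihood test 0 rose and 0 fell at an adjusted p under 0.05, where 0% of all tested genes were called, and the smallest adjusted p was 0.875. At an unadjusted p under 0.05 there was 1 gene, WEE1 (2.5% of the 40), against 4.59% of all genes tested. DESeq2 and limma on FPKM also called 0 of the 40 after adjustment, and each had only WEE1 at an unadjusted p under 0.05, against 4.74% and 4.88% of all genes.

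The intervals bound what these libraries leave possible. The 95% interval of the fold change lay within 1.5-fold either way for 40 of 40 genes, against 83.0% of all genes tested and 98.5% of the 7006 genes with a mean of at least 5 FPKM. It lay within 1.1-fold for 27. The highest upper bound was 1.24-fold (CDC25C) and the lowest lower bound 0.891-fold (PRC1). These genes were measured with a median standard error of 0.041 on the log2 scale, against 0.075 over all tested genes and 0.051 at a mean of at least 5 FPKM. Any variation between cultures is missing from these intervals if the replicates are technical.

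**Figure D2:**
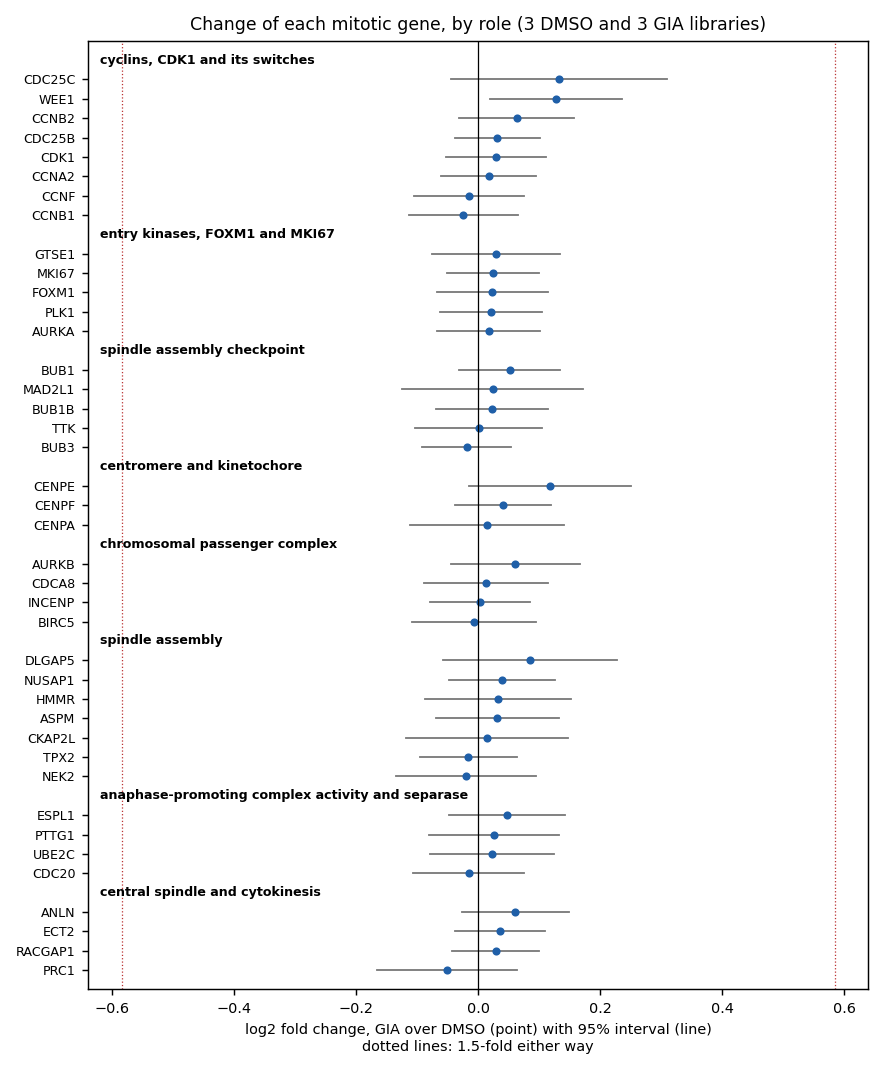
Log2 fold change of each of the 40 genes, GIA over DMSO (points), with its 95% interval from edgeR (lines), grouped by role, from 3 libraries a group. Every interval lies inside the dotted lines at 1.5-fold, and the interval of WEE1 is the only one that does not reach 0.

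Small differences leaned one way: 32 of 40 fold changes were positive and 8 negative, against 50.2% positive over all tested genes. Leaving out any single library gave 28 to 33 positive and a median of 0.017 to 0.030. This count is a description and carries no test. In FPKM, every GIA library lay above every DMSO library for 5 genes (12.5%), BUB1, CDC25B, CDC25C, RACGAP1 and WEE1, against 5.63% of all genes. It lay below for 0 genes, against 5.60%. Either way together it was 12.5% of the 40 against 11.2% of all genes, which is close to the background. That count was 13 when GIA library 2 was left out (10 of them higher), 10 for GIA library 1, 9 for GIA library 3, 8 for DMSO library 1, 7 for DMSO library 3 and 6 for DMSO library 2, where 19.2% to 27.1% of all genes did not overlap.

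Of the genes that switch CDK1, the inhibitor WEE1 and the phosphatases CDC25B and CDC25C were among the 5 that did not overlap. That number was close to the background of both directions together (11.2%), but not to that of GIA higher alone (5.63%). No common change of these switches is read from it. PKMYT1, an inhibitory kinase of CDK1 from a further list, went the other way. It had 16.8, 18.0 and 17.0 FPKM with DMSO and 16.6, 16.1 and 16.6 with GIA, and these groups did not overlap. GIA lay lower in this way for 5.60% of all genes. PKMYT1 was named as 1 of the 2 genes of smallest p in its list, so the separation follows in part from the choice. WEE1 (chromosome 11, 9573670 to 9593457) had 5.30, 5.15 and 5.71 FPKM with DMSO and 5.92, 5.82 and 5.95 with GIA. All GIA libraries were above the DMSO libraries, by a small margin over DMSO library 3. The fold change of WEE1 on the log2 scale was 0.13 (SE 0.048), with a 95% interval of 0.020 to 0.24 and an adjusted p of 0.875 by edgeR's quasi-likelihood test. Leaving out single libraries gave 0.098 to 0.17, and the unadjusted p was no longer under 0.05 when DMSO library 1, DMSO library 2, GIA library 1 or GIA library 3 was left out. CDC25C (chromosome 5, 138285265 to 138331877) had 4.11, 4.21 and 4.07 FPKM with DMSO and 4.26, 4.82 and 4.55 with GIA. These groups were apart too, with GIA library 1 only just above DMSO library 2, for a difference of 0.13 (SE 0.078) on the log2 scale (95% interval -0.044 to 0.31). CDC25B (chromosome 20, 3786772 to 3806121) had 42.7, 43.1 and 42.2 FPKM with DMSO and 43.4, 43.9 and 43.7 with GIA, a log2 fold change of 0.031 (SE 0.031). The groups were apart by little, with GIA library 1 next to DMSO library 2, and in FPKM, a scale per length, CDC25B stood far above CDC25C.

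The cyclins and CDK1 itself overlapped between the groups. CDK1 (chromosome 10, 60778331 to 60794852) had 36.03, 34.7 and 34.6 FPKM with DMSO and 35.1, 35.7 and 36.7 with GIA, a log2 fold change of 0.028 (SE 0.036). CCNB1, the main mitotic cyclin (chromosome 5, 69167135 to 69178245), had 72.6, 71.1 and 73.2 FPKM with DMSO and 69.3, 75.4 and 68.99 with GIA. GIA library 2 was the highest of the 6 and the other GIA libraries were the lowest, so the log2 fold change of -0.024 (SE 0.040) averages libraries on both sides. With GIA library 2 left out it was -0.063. The groups of CCNB1 then did not overlap, which follows from that order of the libraries. In that setting 20.9% of all genes did not overlap. CCNA2, the cyclin of S phase and G2, had 35.1, 34.8 and 35.2 FPKM with DMSO and 35.7, 36.3 and 34.7 with GIA, a log2 fold change of 0.017 (SE 0.034). GIA libraries 2 and 3 were the highest and the lowest of the 6. For CCNB2, a further mitotic cyclin, it was 0.063 (SE 0.042) at a mean of 27.1 FPKM, and for CCNF, which serves a ubiquitin ligase, -0.015 (SE 0.040) at 7.55 FPKM.

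Ratios of genes with opposed or linked roles were taken within each library. The log2 FPKM ratio of CDC25B to WEE1 was 3.01, 3.06 and 2.89 with DMSO and 2.87, 2.92 and 2.88 with GIA, a difference of -0.098 (exact permutation p = 0.2, adjusted p = 0.8 over 4 ratios). The groups overlapped, through DMSO library 3. For CDC25C to WEE1 the means were -0.38 ± 0.098 and -0.38 ± 0.10 (SD, n = 3 each; exact permutation p = 1, adjusted p = 1). For CCNB1 to CCNA2 they were 1.04 ± 0.013 and 1.00 ± 0.050 (exact permutation p = 0.4, adjusted p = 0.8), and for PTTG1 to ESPL1, securin to separase, 1.92 ± 0.094 and 1.90 ± 0.097 (exact permutation p = 0.7, adjusted p = 0.933). The exact tests were two-sided, and with 3 libraries against 3 they cannot go below p = 0.1.

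Entry kinases, FOXM1 and MKI67 had log2 fold changes between 0.017 and 0.029, all 5 positive and none past the test. PLK1, which drives centrosome maturation and entry, had 35.9, 36.03 and 37.04 FPKM with DMSO and 38.01, 35.8 and 36.9 with GIA. AURKA, the spindle pole kinase, had 25.6, 26.2 and 27.1 FPKM with DMSO and 26.7, 26.3 and 26.9 with GIA. The AURKA values with GIA lay inside the DMSO range, and those of PLK1 reached past it at both ends. FOXM1, a transcription factor of G2 and mitotic genes, had 36.1, 36.5 and 37.8 FPKM with DMSO and 38.5, 35.9 and 37.9 with GIA. MKI67, which encodes the Ki-67 proliferation antigen, had 25.7, 25.7 and 25.01 FPKM with DMSO and 26.5, 25.3 and 26.05 with GIA. For PLK1, FOXM1 and MKI67 the lowest of the GIA libraries was library 2, and the groups overlapped. GTSE1, a microtubule-binding protein, had 0.029 (SE 0.046) on the log2 scale.

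**Figure D3:**
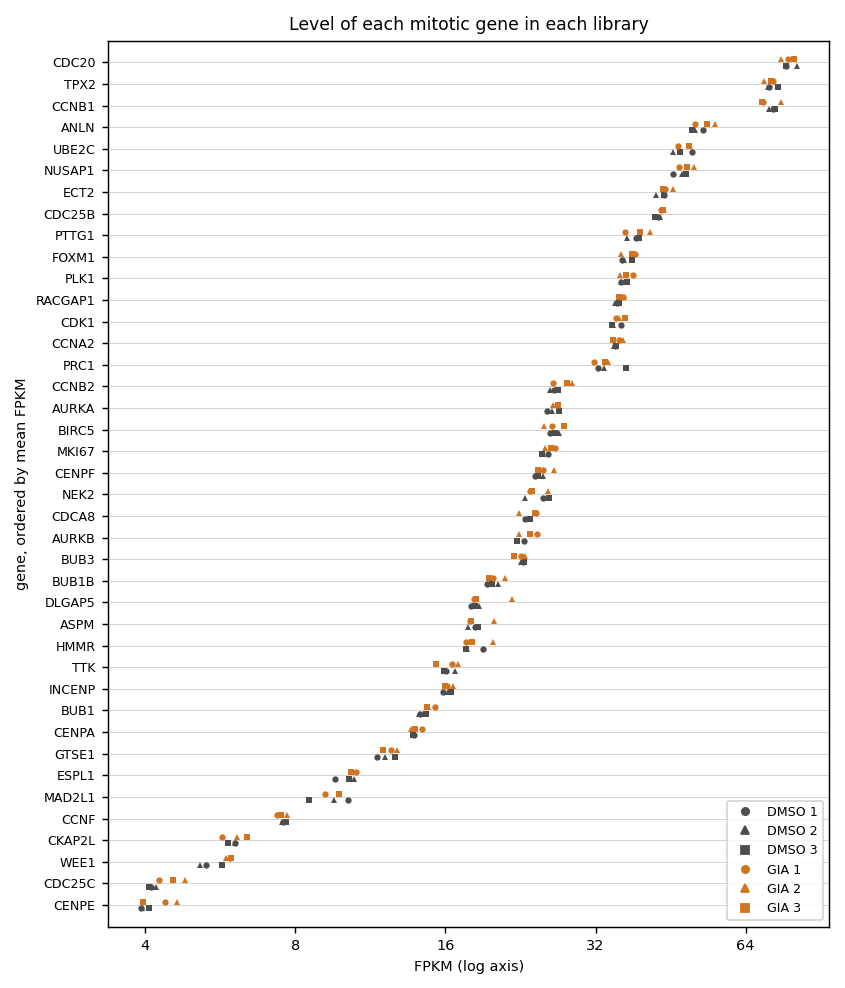
FPKM of each of the 40 genes in each of the 6 libraries (log axis), ordered by mean, with DMSO in grey and GIA in orange and the library number as the marker shape. The 6 points of a gene nearly coincide, while the means run from 4.15 FPKM (CENPE) to 78.1 (CDC20).

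Levels differed far more between the genes than between libraries. CDC20 and TPX2, a spindle assembly factor, were highest, at means of 78.1 and 71.8 FPKM, and CDC25C and CENPE lowest, at 4.34 and 4.15. Neighbours in that order, such as TPX2 and CCNB1 (means of 71.8 FPKM for both), overlapped between libraries. Of the 40 genes, 34 had a mean of at least 10 FPKM, and the median was 24.8 FPKM against 5.22 over all tested genes. The coefficient of variation between libraries of a group had a median of 2.13% with DMSO (range 0.343% for CENPA to 8.98% for MAD2L1) and of 3.38% with GIA (range 0.687% for CDC25B to 10.2% for DLGAP5). Over the 7006 genes with a mean of at least 5 FPKM the medians were 3.16% and 4.46%.

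The 5 spindle assembly checkpoint genes were 4 positive and 1 negative, with none past the test. BUB1, a checkpoint kinase at the kinetochore (chromosome 2, 110637528 to 110678063), had 14.3, 14.1 and 14.6 FPKM with DMSO and 15.2, 14.8 and 14.7 with GIA. The groups were apart, though GIA library 3 and DMSO library 3 were nearly equal, for a difference of 0.052 (SE 0.036) on the log2 scale. With median-of-ratios scaling they overlapped. MAD2L1, which encodes the MAD2 inhibitor of CDC20, had 10.2, 9.58 and 8.51 FPKM with DMSO and 9.18, 9.80 and 9.80 with GIA. DMSO libraries 1 and 3 were the extremes, and its log2 interval, -0.13 to 0.17, was the widest of the 40 after that of CDC25C. BUB1B and BUB3, further checkpoint proteins, had log2 fold changes of 0.022 (SE 0.041) and -0.019 (SE 0.032), and TTK, the MPS1 kinase, 0.00083 (SE 0.046).

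The centromere and kinetochore genes were 3 of 3 positive, with none past the test. CENPE, a kinetochore motor, had 3.93, 3.95 and 4.06 FPKM with DMSO and 4.38, 4.63 and 3.97 with GIA. GIA libraries 1 and 2 were above all DMSO libraries and GIA library 3 was among them. On the log2 scale the difference was 0.12 (SE 0.059), with a 95% interval of -0.015 to 0.25. It was 0.071 with GIA library 2 left out and 0.17 with GIA library 3 left out. The latter step removes the lowest GIA value, so it was bound to raise the difference. The unadjusted p by edgeR was then under 0.05, against 3.85% of all genes in that setting. CENPF had 0.041 (SE 0.035), and CENPA, the histone H3 variant of centromeres, 0.014 (SE 0.056).

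The chromosomal passenger complex corrects faulty attachments, and its 4 genes had a median of 0.0082 on the log2 scale. AURKB, its kinase, had 23.04, 22.3 and 22.2 FPKM with DMSO and 24.4, 22.5 and 23.7 with GIA. GIA libraries 1 and 3 were above the DMSO range and GIA library 2 within it, for a log2 fold change of 0.061 (SE 0.047). The scaffold INCENP had 0.0034 (SE 0.036), CDCA8 (borealin) 0.013 (SE 0.045) and BIRC5 (survivin) -0.0070 (SE 0.045). The sign of INCENP, CDCA8 and BIRC5 changed with at least 1 library left out.

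Among the 7 spindle assembly genes 5 were positive, and none passed the test. DLGAP5, a microtubule-stabilising protein also called HURP, had 17.97, 18.7 and 18.3 FPKM with DMSO and 18.2, 21.8 and 18.4 with GIA. GIA library 2 was far above the rest, and the log2 fold change of 0.085 (SE 0.063) became 0.0026 without it. HMMR and ASPM, which act at spindle poles, had 0.033 (SE 0.053) and 0.031 (SE 0.045), and without GIA library 2 -0.017 and -0.018. NUSAP1, which binds spindle microtubules, had 0.039 (SE 0.039), CKAP2L 0.014 (SE 0.058), TPX2 -0.016 (SE 0.035) and the centrosomal kinase NEK2 -0.020 (SE 0.051).

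Genes that bring about anaphase overlapped between the groups. CDC20 (chromosome 1, 43358981 to 43363203) had 77.3, 80.96 and 77.1 FPKM with DMSO and 77.7, 75.2 and 80.2 with GIA, a log2 fold change of -0.016 (SE 0.040). DMSO library 2 and GIA library 2 were its highest and lowest. PTTG1, which encodes securin, had 38.7, 37.03 and 39.1 FPKM with DMSO and 36.6, 41.1 and 39.3 with GIA, a log2 fold change of 0.025 (SE 0.047). GIA libraries 1 and 2 were the lowest and the highest of the 6. ESPL1, which encodes separase, had 0.047 (SE 0.042), and UBE2C, the ubiquitin-conjugating enzyme of the anaphase-promoting complex, 0.023 (SE 0.045).

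Cytokinesis genes were 3 of 4 positive, with none past the test. RACGAP1, a subunit of centralspindlin (chromosome 12, 49976923 to 50025518), had 35.4, 35.1 and 35.6 FPKM with DMSO and 36.3, 36.4 and 35.6 with GIA. The groups were barely apart, with DMSO library 3 next to GIA library 3, and the log2 fold change was 0.029 (SE 0.031). ANLN, which organises the contractile ring, had 0.061 (SE 0.039), and ECT2, which activates RHOA there, 0.036 (SE 0.033). PRC1, which bundles the central spindle, had 32.3, 33.2 and 36.8 FPKM with DMSO and 31.8, 33.8 and 33.4 with GIA. DMSO library 3 was the highest, and the log2 fold change of -0.051 (SE 0.051) became 0.0064 without it.

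Some of these genes overlap other gene models, and their values are uncertain to that extent. Reads of PRC1 may be shared with AC068831, a model on the same strand at 13.2 FPKM, and those of CENPA with SLC35F6 at 22.1 FPKM. BUB1B overlaps PAK6 (1.04 FPKM) and CCNB2 overlaps AC092757 (1.12 FPKM) in the same way. CCNA2, NUSAP1, ANLN and FOXM1 overlap genes of the opposite strand at 2.18 to 21.5 FPKM, and the sources used here do not say if counting used strand. A copy of CDC20 by name, CDC20P1, had 1.17 FPKM.

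GIA library 2 often held the extreme value. It was the highest library for 17 genes (42.5%, against 27.0% of all tested genes) and the lowest for 7 (17.5%, against 26.6%). DMSO libraries 1, 2 and 3 were the highest for 2, 1 and 6 genes. These are 5%, 2.5% and 15%, against 14.6%, 17.0% and 13.1% of all tested genes. Relative to the mean of the 6 libraries, the mean log2 CPM (a count scaled by library size) of the 40 genes was -0.017, -0.017 and -0.0068 with DMSO, and 0.0032, 0.028 and 0.0100 with GIA. The genes highest above their mean in GIA library 2 were DLGAP5 (0.19), CENPE (0.15), CDC25C (0.14), HMMR (0.11) and ASPM (0.11). The lowest were BIRC5 (-0.076), CDCA8 (-0.075), CDC20 (-0.064), FOXM1 (-0.058) and TPX2 (-0.053). The same library had the lowest KRT18 (219 FPKM) and KRT8 (134) and the highest MUC13 (64.5), LUM (197) and CLDN7 (14.9), and the part of these markers in the result was not tested.

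**Figure D4:**
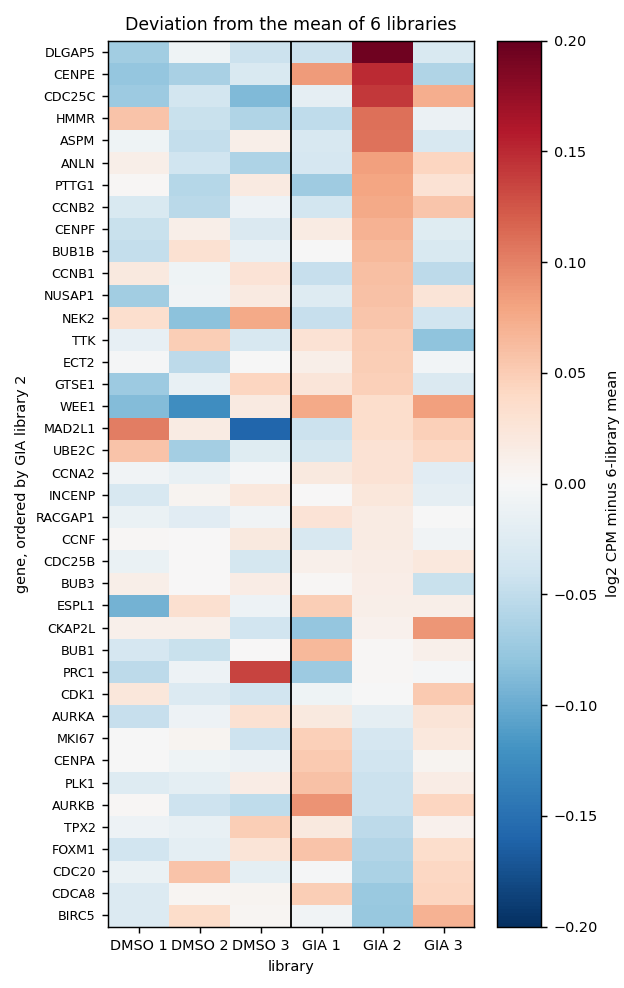
Deviation of log2 CPM from the mean of the 6 libraries (colour, blue low, red high, scale -0.2 to 0.2) for the 40 genes, ordered by GIA library 2, with the line between DMSO and GIA. GIA library 2 runs from 0.19 (DLGAP5) to -0.076 (BIRC5).

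Within the 40 genes the values of GIA library 2 followed the GC content of the transcripts. GC content, taken from transcripts in GENCODE 29, ran from 35.3% (CENPE) to 59.6% (INCENP), with a median of 44.1% against 48.5% over 13638 tested genes with a value. Of the 20 genes of lowest GC, 19 were above their 6-library mean in GIA library 2, and of the 20 of highest GC 10 were. The median deviations were 0.053 and -0.0080 on the log2 scale. Across the 40 genes the deviation in GIA library 2 and the GC content had a Spearman correlation of -0.56 (Pearson -0.57), and across all 13638 genes -0.0052. In the other 5 libraries the Spearman correlation across the 40 genes was -0.17 to 0.33. Genes of 1 library share its preparation and depth and are not independent, and the part of GC content in these values was not tested. Positive fold changes were found in 17 of the 20 genes of lower GC and 15 of the 20 of higher GC.

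**Figure D5:**
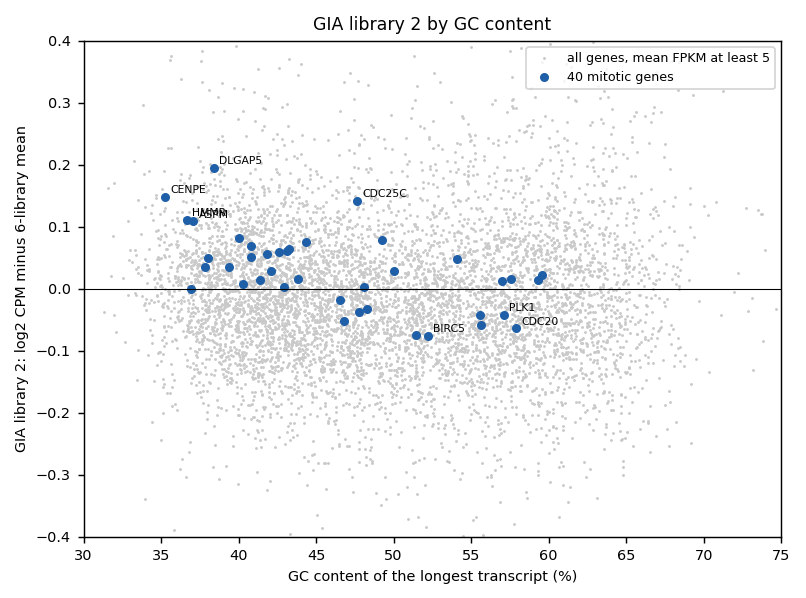
Deviation of log2 CPM in GIA library 2 from the mean of the 6 libraries against the GC content of the transcript (%), for the 40 mitotic genes (blue) and the 7001 genes with a mean of at least 5 FPKM and a GC value (grey), of which 80 lie outside the axes. The blue points fall from the upper left, with DLGAP5 and CENPE, to CDC20 and BIRC5 below 0, while the Spearman correlation over the grey points was -0.044.

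Other genes of the mitotic machinery had small fold changes as well, and of 93 genes in 7 lists none passed the test. Among 18 genes of the anaphase-promoting complex and its regulators 6 were positive, with a median of -0.0096 on the log2 scale. FZR1, the activator that acts from late mitosis into G1, had 5.00, 4.55 and 4.66 FPKM with DMSO and 5.48, 5.66 and 5.27 with GIA. The log2 fold change of FZR1 was 0.21 (SE 0.057), with an adjusted p of 0.875 by edgeR's quasi-likelihood test. FBXO5, the inhibitor also called EMI1, had 7.50, 7.19 and 7.29 FPKM with DMSO and 6.77, 6.55 and 6.73 with GIA, a log2 fold change of -0.14 (SE 0.056) with the same adjusted p. For both genes the groups did not overlap and the unadjusted p was under 0.05, against 11.2% and 4.59% of all genes tested. They were named for the smallest p of the 18, so these outcomes follow in part from the choice. With single libraries left out the fold changes of FZR1 and FBXO5 were 0.18 to 0.25 and -0.15 to -0.12.

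The other lists also lay near the median of all tested genes, 0.00038 on the log2 scale. Cohesin and its release had a median of 0.016 (9 of 14 positive), with SGO1, which protects centromeric cohesin, at 0.11 (SE 0.077) and STAG1, a cohesin subunit, at -0.084 (SE 0.065). Condensin, which compacts mitotic chromosomes, had 0.013 (5 of 8 positive), with SMC4 at 0.048 (SE 0.036) and NCAPH at -0.059 (SE 0.046). The DREAM and MuvB-MYBL2 genes, which control mitotic promoters, had -0.015 (3 of 12 positive), with TFDP2 at 0.090 (SE 0.055) and LIN9 at -0.075 (SE 0.066). These lists held genes on both sides of 0.

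Further mitotic kinases and phosphatase control had -0.019 (6 of 17 positive). PPP2R2A, a subunit of the phosphatase PP2A, was at -0.13 (SE 0.044), with groups apart and an unadjusted p under 0.05 by edgeR. Of all genes tested, 11.2% had groups apart and 4.59% such a p. PPP2R2A had the smallest p of the 17, so both outcomes follow in part from the choice. PKMYT1, a further inhibitory kinase of CDK1, was at -0.070 (SE 0.042). Checkpoint partners had 0.00017 (5 of 10 positive), with MAD2L1BP at 0.069 (SE 0.055) and ZWILCH, a kinetochore protein, at -0.045 (SE 0.051). Abscission and contractile ring genes had -0.012 (5 of 14 positive), with VPS4A at -0.063 (SE 0.037) and the citron kinase CIT at 0.081 (SE 0.048).

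DNA replication genes serve the copying of DNA, which comes before mitosis. Of 31 licensing and synthesis genes 4 were positive, with a median log2 fold change of -0.025, beside 32 of 40 and 0.024 for the mitotic genes. None passed the test. MCM4, a subunit of the replicative helicase, had 55.6, 54.3 and 54.9 FPKM with DMSO and 52.6, 51.2 and 51.9 with GIA, a log2 fold change of -0.083 (SE 0.030). The groups of MCM4 did not overlap, and GIA lay lower in this way for 5.60% of all genes. MCM4 had the smallest p of the 31, so its separation follows in part from the choice. PRIM1, the primase, had -0.098 (SE 0.043). When GIA library 2 was left out the replication genes had 11 of 31 positive and a median of -0.0048, while the mitotic genes had 29 of 40 and 0.017. The replication median was -0.047 with GIA library 1 left out and -0.042 with GIA library 3 left out. The replication count was 7 positive with DMSO library 3 left out, 6 with GIA library 1 left out, 5 with DMSO library 2 left out and 4 with DMSO library 1 or GIA library 3 left out. The difference between the lists was not tested.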

How the data were processed

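RNA-seq of 6 libraries labelled HCT116 (3 DMSO, 3 GIA) was used as 1 table with gene names and positions. The submitters' processing notes name StringTie 2.1.6, HISAT2 2.2.1, cutadapt, DESeq2 1.22.2 and FastQC 0.10.1, without roles or order. They also name the builds hg38 and GRCh38. The annotation release was not given in these sources. Libraries were strand-specific, made with a SMARTER kit from TRIzol RNA, per the labels' protocols. Per the file headers, the authors deposited FPKM and a count for each gene and library. Among low counts the value 4 was the most frequent (6798 entries, with 4183 equal to 3 and 2499 equal to 5), so the deposited counts were treated as estimated counts, in which 1 fragment may be worth about 4, and they needed no rounding. Columns were matched to libraries by name and title.

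Genes with a mean of at least 0.5 FPKM were tested with the quasi-likelihood test of edgeR 4.0.16 (R 4.3.3), two-sided, TMM scaling (factors 0.997 to 1.01), no covariate, Benjamini-Hochberg adjustment over all 13721 genes and a threshold of 0.05. Each standard error was derived from the F statistic of its fold change. The common biological coefficient of variation was 11.0%. The test was tried on simulated counts, which lacked the steps of about 4 of the deposited ones, and no result here rests on that trial. No library was a copy of another (chi-square per degree of freedom at least 2.68, on counts divided by 4). Alternatives used DESeq2 1.42.0, limma 3.58.1 on log2(FPKM + 0.5, 0.1 or 1), other scalings and filters, counts divided by 4, a replicate block, and each library left out.

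The members and gene lists were chosen with earlier results of these data known. All 40 members could be named. Values of every library were given for 14 fixed members, for any with an unadjusted p under 0.05 or groups that did not overlap, and for the 2 of widest interval. For each further list the 2 genes of smallest p were named. CENPE, DLGAP5, PRC1 and the genes checking the cell label (intestinal genes, AXIN2, VIM) were added after their values were seen. The marker lists of other cell types were fibroblast, leukocyte and endothelial.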

Additional observations from a re-analysis of the deposited data

How the results depend on the processing

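Of the 40 genes 0 passed under each of 10 alternatives that kept all libraries and with each of 6 libraries left out. The mean FPKM filter of at least 5 left 38 of the 40. Over all genes the count past the threshold was 0, with 3 under the replicate block and 0 to 5 with a library left out. The number of the 40 genes whose groups did not overlap was 6 to 13 with a library left out, from 15% (19.2% of all genes) without DMSO library 2 to 32.5% (20.9% of all genes) without GIA library 2. Same-numbered libraries did not all deviate together (correlations of -0.044, -0.085 and 0.22), 2 of 6 correlated best with their own number, and the numbers were not taken as pairs. The replicate block called 0 of the 40 genes; it turned TTK from 0.00083 to -1.30e-05. With a mean of at least 5 FPKM BIRC5 turned from -0.0070 to 0.00190. Signs changed with a library left out for 18 of the 40, among them PRC1, the lowest of the 40 with all libraries, and most often without GIA library 2 (9 genes), and the cause was not tested. The ranges were -0.042 to 0.011 for CDC20, -0.0037 to 0.046 for PLK1, -0.0017 to 0.037 for AURKA, -0.0057 to 0.043 for BUB1B, -0.046 to 0.082 for MAD2L1, -0.025 to 0.039 for TTK, -0.0093 to 0.036 for CENPA, -0.030 to 0.0053 for TPX2, -0.046 to 0.028 for BIRC5, -0.012 to 0.015 for INCENP, -0.0085 to 0.051 for CDCA8, -0.017 to 0.070 for HMMR, -0.088 to 0.0064 for PRC1, -0.018 to 0.055 for ASPM, -0.0052 to 0.058 for UBE2C, -0.0093 to 0.066 for PTTG1, -0.064 to 0.014 for NEK2 and -0.029 to 0.056 for CKAP2L. ZWILCH ranged from -0.086 to 0.0016. The log2 ratio of CDC25C to WEE1 differed by -0.050 to 0.051 and that of PTTG1 to ESPL1 by -0.074 to 0.030. With 3 libraries a group, the 95% intervals of single genes reached up to 1.24-fold and down to 0.891-fold.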

Other observations

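CDK inhibitors and growth arrest genes had 0 of 13 past the test and 8 positive, with a median log2 fold change of 0.019. CDKN1B, which encodes the inhibitor p27, had 27.98, 28.4 and 28.2 FPKM with DMSO and 29.7, 34.3 and 29.97 with GIA. All GIA libraries were above all DMSO libraries, with GIA library 2 the highest, and the log2 fold change was 0.15 (SE 0.053), with an adjusted p of 0.875 by edgeR's quasi-likelihood test. It was 0.085 to 0.18 with a library left out. CDKN1B had the smallest p of the 13, so its separation follows in part from the choice. GIA lay higher without overlap for 5.63% of all genes. CDKN2B, which encodes p15, had 23.6, 24.1 and 24.7 FPKM with DMSO and 22.6, 21.4 and 23.6 with GIA, a log2 fold change of -0.10 (SE 0.046). GIA library 3 was just above DMSO library 1, and the other GIA libraries were below all DMSO libraries.

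Markers of other cell types were measured as well. All 4 tested fibroblast markers were positive, with a median log2 fold change of 0.15, and their summed level, with the untested ones, was 178 to 195 FPKM with DMSO and 175 to 222 with GIA, highest in GIA library 2. COL3A1 was listed at 0 in 5 libraries, while LUM made up most of the sum. Of the leukocyte markers CD68, which many cell types express, had 17.0 to 24.6 FPKM, and PTPRC did not exceed 0.0162. Summed endothelial markers did not exceed 0.222 FPKM. Their part in the results was not tested.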
